A study of Mus musculus with 2 samples.

Results

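The peaks described here lie in the stretches of the mouse genome between genes. They were taken from the single list of N4-acetylcytidine (ac4C) peaks of the series by position alone. A peak was a member if it lay on chromosomes 1 to 19 and its summit fell in no RefSeq gene span of any kind and more than 5 kb from every protein-coding gene span. The rule used position only, and no fold enrichment or depth. It found 326 members among 20718 peaks on those chromosomes (1.57%, 95% Wilson interval 1.41 to 1.75%) and 21192 peaks in all. The intervals of shares given here cover counting error of 1 peak list only.

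The list came from 2 libraries of polyA RNA. Both were made from wild-type mouse uterus, taken whole at gestational day 4. One was an ac4C immunoprecipitation (n = 1) and the other an input control (n = 1). The labels name no further treatment, strain or age, and they do not say how many animals were pooled. There were no replicates, so no value here has a replicate check and no difference was tested.

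ac4C is an acetyl group on cytidine that the enzyme NAT10 adds to RNA, and it is best known from the small ribosomal subunit RNA, from transfer RNAs and, more recently, from messenger RNAs. In acRIP-seq, RNA is broken into fragments, the fragments that carry ac4C are pulled down with an antibody, and a peak is a place where the pulled-down fragments pile up above a background. A summit outside all annotated genes may mark an RNA that the gene table does not name. It may also come from fragments placed there from a similar sequence elsewhere, or have another source. These sources were not told apart here. Beside the tissue label, 8 of 8 genes characteristic of the uterus (Pgr, Esr1, Hoxa10, Hoxa11, Hand2, Wnt4, Msx1 and Ihh) held a summit. Of 4 Y-linked genes (Ddx3y, Eif2s3y, Kdm5d and Uty), 0 did. Both lists were chosen with earlier results of these data known, so the counts are no independent check of the label. Of all 20665 protein-coding genes on chromosomes 1 to 19, 31.7% held a summit, so 4 genes without one say little. Chromosome Y nevertheless held 32 peaks, 23 of them as far from genes as the members and with 7 to 233 fragments, so the 4 genes do not speak for the whole chromosome. Whether those fragments came from similar sequence elsewhere was not tested. Whether a gene without a summit was transcribed is not shown by this list.

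Sequences were at hand for only a few members, as no genome sequence was used. Of the 326 members, 1 lay over an annotated microRNA and 2 reached into the window around an annotated transcription start. The microRNA was Mir692-1, and the hairpins of 2 of its copies are shown because a peak overlapped each copy. The sequences are those of RefSeq on GRCm38.p6, written 5′ to 3′. Capitals in the mature sequence mark the seed, bases 2 to 8.
Mir692-1 hairpin, chr17:6895229-6895337, minus strand: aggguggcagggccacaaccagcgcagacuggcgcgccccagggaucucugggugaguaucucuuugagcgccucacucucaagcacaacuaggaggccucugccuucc
Mir692-2 hairpin, chr4:125504749-125504857, plus strand: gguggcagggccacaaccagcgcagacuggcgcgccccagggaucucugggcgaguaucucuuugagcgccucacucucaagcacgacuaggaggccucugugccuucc
mmu-miR-692, the same mature sequence in Mir692-1, Mir692-2 and Mir692-3: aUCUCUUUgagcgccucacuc

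The member on chromosome 17 (chr17:6895087-6895289) had its summit 33 bp from the Mir692-1 hairpin and covered 61 of the 109 bases of the hairpin, with all 21 bases of the mature sequence. It held 9 fragments in the immunoprecipitation over a background of 0.317, the lowest background of the list, and its fold enrichment was 7.59 (95% interval 3.88 to 13.7). The hairpins of Mir692-1 and Mir692-2 matched at 105 of 111 aligned positions (94.6%). The peak over Mir692-2 (chr4:125504758-125504973) also had its summit 33 bp from the hairpin, with 13 fragments and a fold enrichment of 10.4 (5.87 to 17.2). It was no member because it lay in the span of Grik3, a glutamate receptor subunit gene. The peak over Mir692-3 (chr13:74406458-74407242) held 22 fragments at a fold enrichment of 6.34 (4.08 to 9.46). Its summit lay in Ftl1-ps1, a pseudogene of the ferritin light chain gene, and Ftl1 itself held 4 peaks of 69 to 146 fragments with fold enrichments of 3.64 to 5.21. A peak thus overlapped all 3 copies, and the intervals of their fold enrichments overlapped. Whether they shared fragments with each other or with Ftl1 was not tested.

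The medians of the members lay near those of the rest of the list, while more of them had a high fold enrichment, a wide peak, many fragments or a very low or deep background. A fold enrichment is the number of fragments at the summit plus 1 over the background plus 1, as given by the authors' peak caller. Its median was 5.99 in the members (interquartile range 4.48 to 8.35; range 2.13 to 57.0) and 5.58 in the 20392 other peaks of chromosomes 1 to 19 (4.34 to 7.35). The median width was 334 bp (226 to 550 bp; 200 to 5454 bp) in the members and 314 bp (229 to 474 bp) in the others. The summits of members rested on a median of 23 fragments (10.25 to 41.75; 4 to 390), against 22 (14 to 35) in the others. The median background was 2.06 fragments (0.438 to 7.42) in the members and 2.63 (1.31 to 5.25) in the others. The interquartile ranges of fragments and background were wider in the members on both sides. These medians counted every peak of the groups of neighbouring members described below as stretches. With each stretch counted once, by its peak of highest fold enrichment, the members had a median of 13 fragments over a background of 0.613. The other peaks were not counted in this way, so these values cannot be set against theirs. The choice of the highest fold enrichment is also not independent of the background.

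The wider spread came from members with almost no background and from members with a deep one. The lowest background of the list, 0.317 fragments, was found in 73 members (22.4%, 95% interval 18.2 to 27.2%) and in 521 other peaks (2.55%, 2.35 to 2.78%). At the other end, a background of at least 8 fragments was found in 66 members (20.2%, 16.2 to 24.9%) and in 2807 other peaks (13.8%, 13.3 to 14.2%). Summits of at least 50 fragments made up 18.1% of members (14.3 to 22.6%) and 11.6% of other peaks (11.2 to 12.03%). Widths of at least 1000 bp were found in 29 members (8.90%, 6.27 to 12.5%) and in 5.42% of other peaks (5.12 to 5.74%). The smallest width, 200 bp, was about as common in both, at 8.28% (5.75 to 11.8%) and 7.91% (7.55 to 8.29%). The higher shares of deep backgrounds, many fragments and wide peaks came from members in the stretches described below, at 29.9%, 25.9% and 13.2%. In members outside stretches these shares were 9.21%, 9.21% and 3.95%, below those of the other peaks. The intervals take members of 1 stretch as separate peaks.

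**Figure D1:**
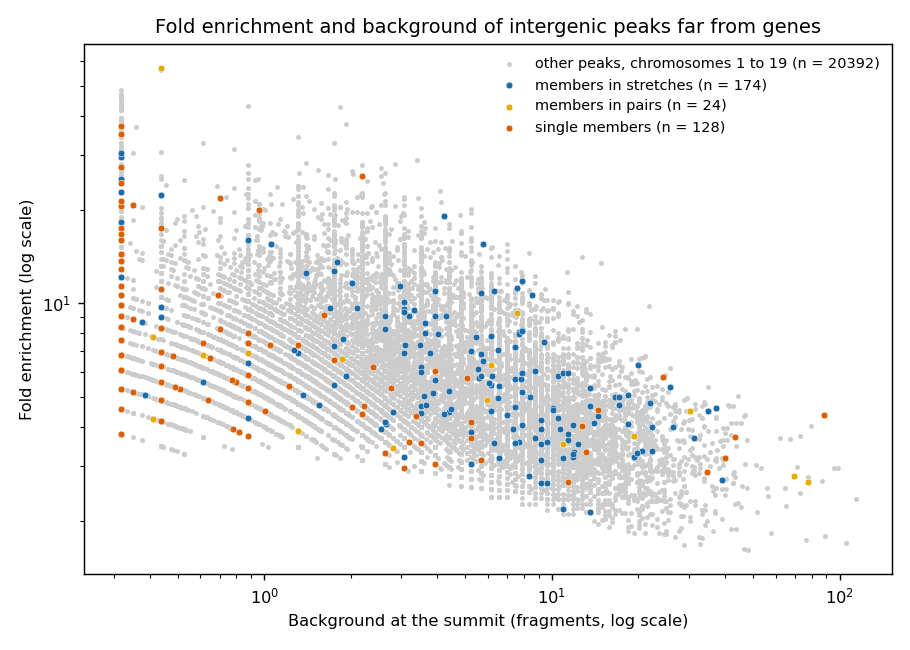
Fold enrichment (vertical axis) against background at the summit in fragments (horizontal axis), both on log scales, for 326 members coloured by whether they stood singly, in pairs or in stretches, over 20392 other peaks in grey. The column of points at the left edge is the lowest background, 0.317 fragments, which 73 members share, and members in stretches lie mostly farther to the right.

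Fold enrichments of at least 10 were found in 51 members (15.6%, 12.1 to 19.985%), beside 9.99% of all peaks on chromosomes 1 to 19. Those of at least 20 were found in 16 members (4.91%, 3.04 to 7.82%), beside 0.85% of all such peaks. Of these 16, 11 lay at the lowest background and 14 at a background below 0.5 fragments, and they rested on 26 to 81 fragments. Stretches held 6 of the 16 and 27 of the 51, and the intervals take each peak as a separate observation. Fold enrichment and background are not independent, since the background enters the ratio. At a background below 0.5 fragments, the 109 members stood at a median of 7.59 with 9 fragments, and the 1428 other peaks at 6.26 with 8. The order was not the same in all 8 classes of background. Members stood lower between 0.5 and 1 fragments, at 5.61 against 6.51, and between 2 and 4, at 5.67 against 5.78. They stood higher between 1 and 2, at 7.05 against 6.45, and between 4 and 8, at 5.76 against 4.84, where their median width was 550 bp against 350 bp. Between 8 and 16 both stood at 3.92. Members were again higher between 16 and 32, at 4.29 against 3.32 with 90.5 against 72 fragments, and from 32 upward, at 3.18 against 2.98 with 9 members. Without the peaks at the lowest background, the median fold enrichment of the members was 5.33.

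Members gathered in stretches. A stretch was taken as 3 or more members with at most 10 kb between neighbouring summits. There were 29 stretches on 14 chromosomes, and they held 174 members (53.4%, 48.0 to 58.7%). A further 24 members stood in 12 pairs and 128 stood singly, which makes 169 separate places. By the same rule, 12269 of the other peaks (60.2%, 59.5 to 60.8%) lay in stretches. Of all peaks on these chromosomes, 19545 had their summit in a protein-coding gene span, so the 2 shares concern regions of unlike kinds. Of the 29 stretches, 7 held 3 members, 13 held 4 to 7 and 9 held 8 or more, with 83 members in these 9. Their median span was 6.54 kb (2.97 to 29.9 kb), and 25 of the 29 were shorter than 9 kb.

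Members in stretches and those outside them were unlike in depth. In stretches, the median was 36.5 fragments (23 to 50.75) over a background of 5.47 (1.89 to 9.19), in peaks of 460 bp (296 to 659 bp). The 152 members outside stretches had a median of 11 fragments (8 to 20) over a background of 0.438 (0.317 to 1.78), in peaks of 252 bp (207 to 348 bp). The lowest background was found in 17 members of stretches (9.77%, 6.19 to 15.1%) and in 56 of the others (36.8%, 29.6 to 44.7%). Their fold enrichments were nearer to each other, with medians of 5.72 (4.23 to 8.26) in stretches and 6.07 (4.80 to 8.35) outside. Members of 1 stretch may be parts of 1 RNA, so they are not separate observations.

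**Figure D2:**
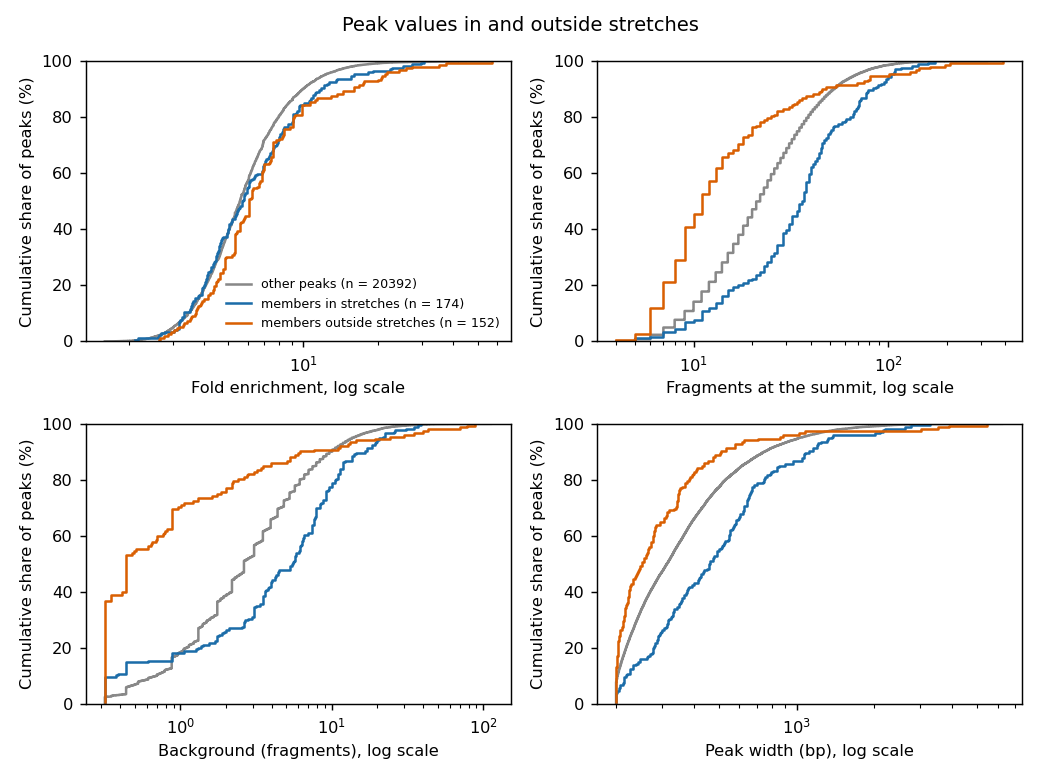
Cumulative share of peaks (vertical axes, percent) by fold enrichment, fragments at the summit, background in fragments and width in bp (horizontal axes, log scales), for members in stretches (n = 174), members outside stretches (n = 152) and other peaks (n = 20392). The fold enrichment curves lie close together, while for fragments, background and width the other peaks lie between members outside stretches, which are lower over most of the range, and members in stretches, which are higher.

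The longest stretch held 15 members on chromosome 6 (chr6:47748363-47778298, 29.9 kb). It began 10.2 kb from the predicted gene Gm40363. The gene of any kind nearest to one of its summits was the long non-coding RNA gene Gm52862, at 703 bp. Gm52862 lay inside the stretch, between neighbouring summits 1182 and 703 bp from it. Peaks covered 23.0% of the length of the stretch. Its median fold enrichment, 10.6 (5.05 to 30.4), came with a median of 13 fragments (6 to 39), and 8 of its 15 members lay at the lowest background. Strong and weak summits were interspersed along it. In the order of position, the 15 members held 38, 9, 39, 8, 13, 17, 13, 32, 15, 29, 9, 6, 11, 31 and 11 fragments. The 7 members above 12-fold held 15 to 39 fragments and the other 8 held 6 to 13. The last 5 members were nearest to Rny3, a gene of the Y RNAs, small RNAs bound by the Ro protein, at 3487 to 12155 bp. The intervals of its highest members, 30.4 (21.8 to 41.2) at chr6:47752686-47753053 and 29.6 (21.2 to 40.4) at chr6:47748363-47748739, overlapped almost wholly.

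The next 8 stretches by number of members formed a more even set. Each held 8 to 10 members, 68 in all, over 6.17 to 8.49 kb, with median spacings of 622 to 1074 bp between summits and 48.4% to 75.9% of the stretch under peaks. None of their members lay at the lowest background, and the median background of a stretch ran from 1.90 to 10.1 fragments. Their median fold enrichment ran from 4.73 to 9.67 and their median number of fragments from 29 to 65.5. In background and fragments they were thus unlike the stretch on chromosome 6.

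On chromosome 7, 10 members (chr7:7070507-7078108) lay 36.7 kb past the end of Zfp954, a zinc finger gene, and 7.15 kb from the pseudogene Pafah1b1-ps2. In the order of position their fold enrichments were 5.01, 15.5, 9.67, 9.67, 13.6, 7.27, 11.6, 6.89, 5.35 and 12.7. The deepest of them, with 77 fragments, was the one of 5.35, because its background was 13.6 fragments while the others had at most 3.59. On chromosome 11, 10 members (chr11:6749552-6757996) lay 72.2 kb past the end of Ramp3, which encodes a partner protein of the calcitonin receptor family. Their fold enrichments, in order, were 4.67, 7.52, 5.94, 3.21, 11.2, 2.63, 5.69, 4.26, 5.98 and 4.95, on 27 to 95 fragments. The peak of 11.2 (9.07 to 13.6) and that of 2.63 (1.77 to 3.79) were neighbours, and their intervals did not overlap.

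Stretches of 8 members were found at 6 places. On chromosome 10, one (chr10:8544271-8550961) lay 25.6 kb upstream of Ust, which encodes a sulfotransferase of glycosaminoglycan chains, with fold enrichments of 3.69 to 19.03. Another on chromosome 10 (chr10:50419679-50427187) lay 166 kb upstream of Ascc3, a helicase gene of the ASC-1 complex, with 3.20 to 15.5 on 35 to 104 fragments. On chromosome 4, a stretch (chr4:15236278-15242449) lay 24.0 kb from Tmem64, a transmembrane protein gene, with 3.94 to 9.48. On chromosome 5, a stretch (chr5:109900883-109907061) lay 11.1 kb past the end of AB010352, with 3.33 to 6.88. On chromosome 11, a stretch (chr11:86882762-86891252) lay 45.3 kb past the end of Ypel2, with 3.56 to 9.10. On chromosome 13, a stretch (chr13:67884986-67893427) lay 21.2 kb past the end of BC048507, with 4.70 to 9.60. The lowest member of these 6 stretches stood at 3.20 and the highest at 19.03.

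**Figure D3:**
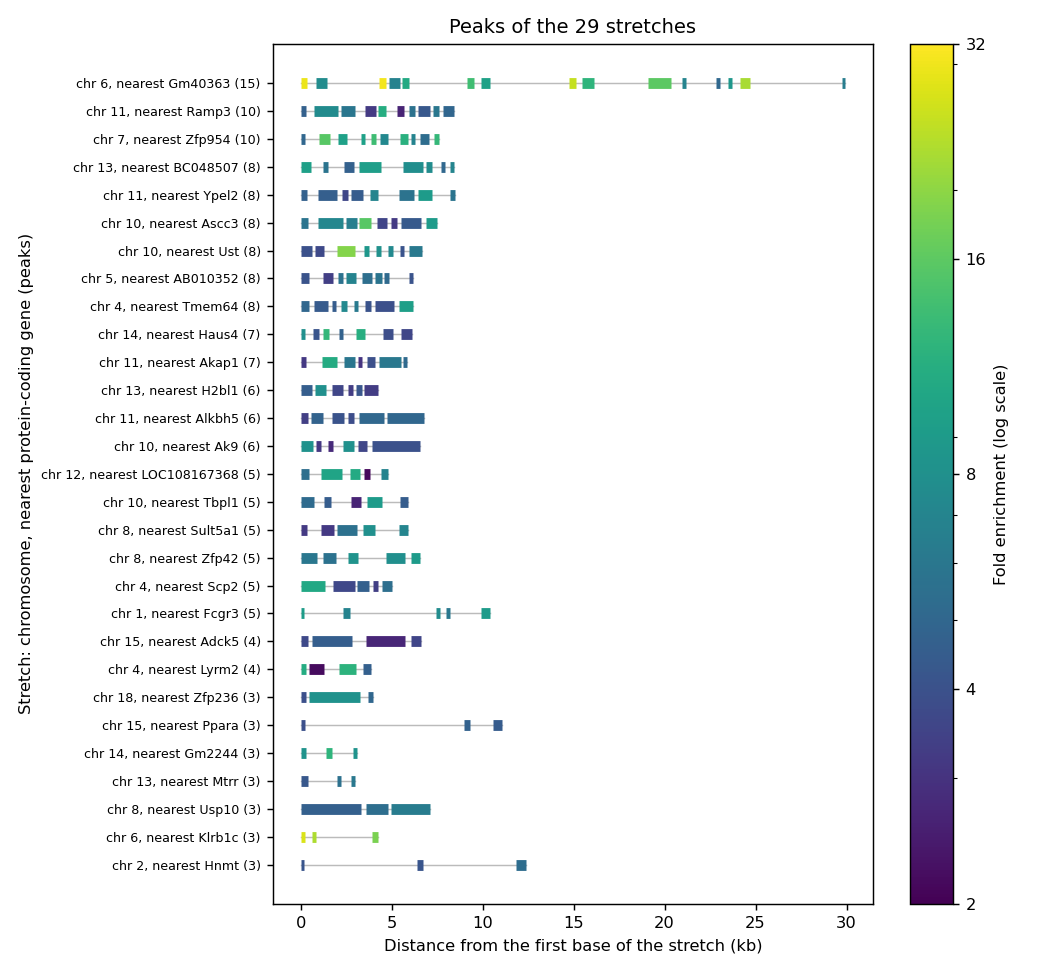
Peaks of the 29 stretches, 1 row each, named by chromosome and nearest protein-coding gene with the number of peaks in brackets, by distance in kb from the first base of the stretch (horizontal axis) and coloured by fold enrichment on a log scale from 2 to 32. Most stretches end before 9 kb, and the stretch of 15 on chromosome 6 reaches 29.9 kb.

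Fold enrichment varied along the stretches. In 20 of 29, the 95% interval of the lowest member lay wholly below that of the highest, and the ratio of the highest to the lowest fold enrichment had a median of 2.43 over the 29 and reached 6.01. These pairs were picked as the extremes of each stretch, with no allowance for that choice and the background taken as known, so the count is a description and not a test of unevenness. In 20 of 29 stretches no other peak lay within 10 kb of either end. In the other 9, a peak outside the members lay that close beyond an end, so the stretch as given here was only part of a longer row of peaks.

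3 stretches stood out by their values rather than their number of members, and they were picked after their values were seen. On chromosome 8, between Klhl36 and Usp10, which encode a ubiquitin ligase adaptor and a deubiquitinase, 3 wide members (chr8:119889716-119896825) measured 3298, 1207 and 2158 bp and held 175, 143 and 132 fragments. Their fold enrichments were 4.62 (3.96 to 5.35), 5.37 (4.53 to 6.32) and 6.35 (5.32 to 7.52), so that neighbouring intervals overlapped. Peaks covered 93.7% of the stretch, over backgrounds of 19.96 to 37.1 fragments. On chromosome 6, 3 members 14.3 kb and more from Klrb1c, a receptor gene of natural killer cells (chr6:128760082-128764351), were the opposite case. They stood at 27.3, 22.8 and 18.2 on 35, 29 and 23 fragments, all at the lowest background. On chromosome 1, 5 members (chr1:171071802-171082219) had summits 43 to 114 bp from 5 transfer RNA genes for glutamate and glycine. These were n-TEctc8, n-TGgcc13, n-TEctc7, n-TGtcc4 and n-TGgcc14. At n-TEctc8, n-TGgcc13, n-TGtcc4 and n-TGgcc14 the peak itself reached into the gene. Between the 5 members lay 2 peaks that were not members. The 5 members held 11, 15, 9, 7 and 12 fragments, with fold enrichments of 6.07 to 9.11.

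The member of highest fold enrichment lay on chromosome 2 (chr2:98666453-98667313). It stood at 57.0 (45.4 to 70.7), on 81 fragments over a background of 0.438, and ranked 2 among all 21192 peaks. No protein-coding gene lay within 1035 kb, the nearest being Lrrc4c, a synaptic adhesion gene, and no peak outside the members lay within 3229916 bp. A second member 4862 bp away (chr2:98662156-98662452) held 6 fragments at 5.32 (2.43 to 10.7). Next was a single member on chromosome 18 (chr18:54698893-54699515) at 37.2 (27.6 to 49.1) on 48 fragments, 59.2 kb from the long non-coding RNA gene 9330117O12Rik and 189 kb from the zinc finger gene Zfp608. A single member on chromosome 13 (chr13:85126966-85127358) stood at 34.9 (25.7 to 46.5) on 45 fragments, 62.2 kb from Ccnh, which encodes cyclin H. These intervals take the background as known. The interval of the member on chromosome 2 overlapped that of the member on chromosome 18 and, just, that on chromosome 13. With those 2 peaks of the stretch on chromosome 6, these were the 5 highest.

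The 3 members with most fragments had low fold enrichments over deep backgrounds and lay next to pseudogenes. The deepest (chr17:39842987-39846509) held 390 fragments, the most of any peak in the list, over a background of 88.4, at a fold enrichment of 4.37 (3.95 to 4.83). Its summit lay 281 bp from Rn18s-rs5, a pseudogene related to the small ribosomal subunit RNA, and the peak itself reached into that gene. The next 2 were neighbours on chromosome 1, chr1:24614988-24615496 with 207 fragments over 77.5 and chr1:24615750-24616187 with 195 over 69.6. Their fold enrichments were 2.65 (2.30 to 3.04) and 2.78 (2.40 to 3.19). Their summits lay 436 and 1281 bp from the pseudogene Gm10925. The member that came after them, chr8:119889716-119893013 with 175 fragments, was nearest to the protein-coding gene Klhl36, at 15361 bp. At these depths the intervals were narrow, whereas in the median member the interval ran from 64.9% to 148% of the fold enrichment.

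The widest member (chr4:133096066-133101519) measured 5454 bp and stood singly, 21.1 kb past the end of Ahdc1 and 12.2 kb from the long non-coding RNA gene Gm26615. It held 145 fragments at a fold enrichment of 5.78 (4.89 to 6.80). The next, of 3879 bp (chr7:30689932-30693810), had its summit 5764 bp upstream of 2200002J24Rik and stood at 9.31 (7.40 to 11.6) on 79 fragments. The peak that reached into Rn18s-rs5 came after it, at 3523 bp. Together the members covered 164 kb, of which stretches held 103 kb.

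Distance from protein-coding genes ran from just over the limit to 1781 kb. The median distance to a protein-coding gene was 26.4 kb (10.5 to 62.8 kb), and to a gene of any kind 11.6 kb. Within 10 kb of a protein-coding gene lay 78 members, and 60 lay beyond 100 kb. The far ones were shallower, with a median of 10.5 fragments over a background of 0.425, against 29 over 4.16 within 10 kb, while their median fold enrichments were 6.39 and 5.55. The classes between did not fall in order, with medians of 17, 30 and 17 fragments from 10 to 20, 20 to 50 and 50 to 100 kb. Beyond 100 kb, 14 of 60 members lay in stretches, against 42 of 78 within 10 kb. The farthest member (chr1:113903817-113904193) lay 1781 kb from Cntnap5a, a gene of the neurexin family, and stood at 15.9 (10.04 to 24.2) on 20 fragments. The next 2 were chr1:148520269-148520488, 1309 kb from Pla2g4a, the cytosolic phospholipase A2 gene, at 6.96 on 9 fragments, and chr12:97061317-97061712, 1141 kb from the lysosomal enzyme gene Galc, at 3.55 on 15 fragments.

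Peaks next to the 5 kb limit are given for description. Just inside it, members at 5088, 5116 and 5184 bp from Tbpl1, Gm20385 and Ak9 had fold enrichments of 5.21, 7.998 and 8.22 on 27, 14 and 72 fragments. Just outside it, peaks at 4999, 4990 and 4909 bp from Zfp236, Zbtb24 and F5 had 8.78, 2.37 and 3.86 on 70, 47 and 84 fragments. The 178 peaks in no gene but within 5 kb of a protein-coding gene stood at a median of 5.02 (4.22 to 6.64) with 24.5 fragments, and 6.18% (3.49 to 10.7%) of them lay at the lowest background. The 186 peaks in long non-coding RNA genes stood at 4.92 (4.01 to 7.19) with 20 fragments, with 10.2% (6.64 to 15.4%) at the lowest background. The members' share, 22.4% (18.2 to 27.2%), was above both, and its interval overlapped neither.

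Neither side of the neighbouring gene was favoured once stretches were counted once. The strand of the nearest protein-coding gene was known for 269 members, of which 148 lay downstream of the gene and 121 upstream (55.0% downstream, 49.0 to 60.9%). By place, 67 lay downstream and 66 upstream (50.4%, 42.0 to 58.7%). The peaks themselves carry no strand, so whether an RNA ran in the direction of its neighbour was not seen. Of the 167 protein-coding genes nearest to a member, 61 (36.5%, 29.6 to 44.1%) held a summit themselves, against 31.7% of all protein-coding genes on these chromosomes.

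The nearest gene of any kind was protein-coding for 122 members, a long non-coding RNA gene for 85 and a pseudogene for 80. In fold enrichment these 3 groups were close, with medians of 5.91, 5.76 and 6.14. Small RNA genes were nearest to fewer members. Of the 7 nearest to a transfer RNA gene, 5 had their summit within 150 bp of it, all in the stretch on chromosome 1. One member (chr8:123542210-123542413) had its summit 30 bp from n-R5s102, a ribosomal RNA gene on chromosome 8, and the peak reached into the gene. It held 11 fragments at 9.11 (4.93 to 15.7). Another member (chr6:70726484-70726843) had its summit 10 bp from the span of Igk, the immunoglobulin kappa locus, and the peak reached into that span. It held 101 fragments at 2.87 (2.34 to 3.48). In all, 35 members had their summit within 1 kb of a gene of some kind, 17 peaks reached into a gene span although their summit did not, and 259 lay more than 5 kb from every gene.

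MicroRNA genes were nearest to 10 members, at 8 genes, and all 8 genes were found in the RefSeq sequence table. Those with a summit within 2 kb of the hairpin are shown with their mature sequences, seeds in capitals. No 2 of them shared a seed.
mmu-miR-193a-5p: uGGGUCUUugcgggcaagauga
mmu-miR-193a-3p: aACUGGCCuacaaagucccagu
mmu-miR-17-5p: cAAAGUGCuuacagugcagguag
mmu-miR-17-3p: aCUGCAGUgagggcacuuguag
The member beside Mir193a (chr11:79712100-79712451) had its summit 257 bp past the hairpin, at 5.57 (2.85 to 10.1) on 9 fragments over 0.797. The member beside Mir17 (chr14:115042330-115042532) had its summit 1162 bp before the hairpin, which opens a cluster of microRNAs made from 1 long precursor, at 5.41 (2.93 to 9.33) on 11 fragments over 1.22. Neither peak overlapped the hairpin. Mir365-2, in the same region as Mir193a, had a member 7626 bp away at 5.65 (2.89 to 10.2) on 9 fragments. Mir23a had 2 members at 7164 and 6316 bp, at 6.63 and 3.42 on 18 and 12 fragments. All 10 members were modest, with fold enrichments of 3.04 to 8.35, and libraries of this kind do not measure the mature microRNAs.

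The 2 members that reached into a promoter window did so with their flanks. The window of 5430431A17Rik, from 250 bases before its start to 50 after it, is shown because the peak (chr7:44483525-44484550) covered 284 of its 300 bases and because a unit of 12 bases recurred in it. Capitals mark each exact copy of that unit.
5430431A17Rik window, chr7:44484267-44484566, plus strand: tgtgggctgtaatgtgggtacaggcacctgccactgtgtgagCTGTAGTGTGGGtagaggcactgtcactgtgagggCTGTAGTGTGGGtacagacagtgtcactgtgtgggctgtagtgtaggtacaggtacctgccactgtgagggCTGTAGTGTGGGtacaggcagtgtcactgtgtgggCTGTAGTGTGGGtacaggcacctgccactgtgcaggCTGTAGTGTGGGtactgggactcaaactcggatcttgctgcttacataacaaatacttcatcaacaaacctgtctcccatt
The unit CTGTAGTGTGGG occurred 5 times. Searched on both strands, it was found in 1 of the 32544 promoter windows of the table (0.00307%), that of 5430431A17Rik. Cytidines made up 20% of the window, against a median of 25.7% over all windows. A cytidine followed by any 2 bases, repeated 4 times (CNNCNNCNNCNN), the pattern reported for ac4C in other RNAs, began at 3 positions on the plus strand and 0 on the minus strand. It was present on either strand in 88.2% of the windows. The peak held 17 fragments over 0.692 at a fold enrichment of 10.6 (6.45 to 16.7), with its summit 547 bp before the window. The other such member (chr13:98993250-98994040) reached 53 bp into a window of the long non-coding RNA gene Gm35279.

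The members were spread over all 19 chromosomes in unequal shares. Chromosome 13 had the highest share of its peaks among the members, 24 of 532 (4.51%, 3.05 to 6.62%), followed by chromosome 6 with 33 of 918 (3.59%, 2.57 to 5.01%) and chromosome 10 with 32 of 1108 (2.89%, 2.05 to 4.05%). Chromosome 19 had the lowest, 4 of 800 (0.5%, 0.195 to 1.28%), and chromosome 17 had 7 of 1278 (0.548%, 0.266 to 1.13%). These intervals take peaks as separate observations, but on chromosomes 13, 6 and 10 stretches held 17, 18 and 27 of the members, while chromosomes 17 and 19 had no stretch. By place, the counts were 8, 17 and 9 on chromosomes 13, 6 and 10 and 6 and 4 on chromosomes 17 and 19. The most members in all, 39, lay on chromosome 11, and 31 of these were in stretches.

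**Figure D4:**
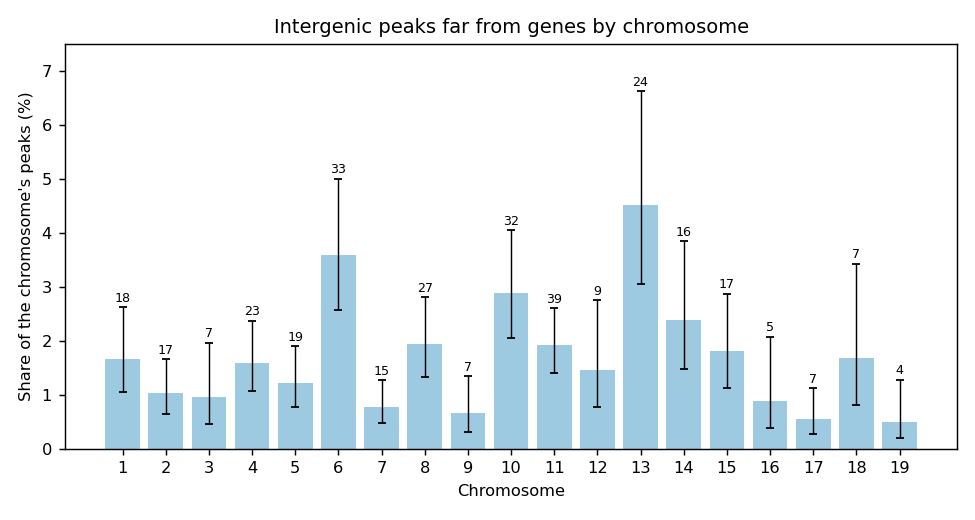
Share of each chromosome's peaks that were members (vertical axis, percent), with 95% Wilson intervals and the number of members above each bar, for chromosomes 1 to 19 (horizontal axis). Chromosomes 13, 6 and 10 stand highest, at 4.51%, 3.59% and 2.89%, and chromosome 19 lowest, at 0.5%.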

How the data were processed

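The authors deposited 1 peak list for an ac4C immunoprecipitation library and an input library. The submitters' processing notes name HISAT2 2.2.1, MACS3 3.0.0a7 and the build mm10 (GRCm38), without options. For each peak the deposited values were position, width, a fold enrichment (a ratio to background), −log10 p-value and −log10 q-value. The authors' deposited score was not used. Positions are counted from 1.

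Fragments at the summit were recovered as the whole number that reproduced both the fold enrichment, with a pseudocount of 1, and the Poisson p-value. It fitted 21192 of 21192 peaks within a relative miss of 1e-05, and a second number fitted in 0. This step was checked on simulated data. Fold intervals are 95% exact Poisson intervals of fragments, with the background taken as known. PCR copies were not told from separate molecules. Read totals were not used, so depth is known only at summits.

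Gene spans came from RefSeq GRCm38.p6, and strands from its promoter table. Work used Python 3.11.15, SciPy 1.17.1, pandas 2.3.3 and Biopython 1.88. The peaks named were the 5 of highest fold enrichment, the 3 with most fragments, the 3 widest, the 3 farthest from protein-coding genes and the 5 stretches with most members, where 6 stretches of 8 tied and all were named. Other peaks were named after their values were seen. The members and lists were chosen with earlier results of these data known. No genome sequence was used.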

Additional observations from a re-analysis of the deposited data

Results flagged for a closer look

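Chromosomes X and Y were outside the rule for the members, and peaks there that met the same distances were flagged as signal in data not used above. Chromosome X held 23 such peaks of 417, with a median fold enrichment of 5.78 (3.17 to 58.5) on a median of 22 fragments. The greatest fold enrichment of the whole list was among them, at chrX:152923399-152923877, which stood at 58.5 (95% interval 46.2 to 73.0) on 76 fragments at the lowest background, 13275 bp from the pseudogene Rpl7a-ps12. Chromosome Y held 23 such peaks of 32, with a median of 6.88 (3.23 to 18.3) on 24 fragments, 2 of them with 233 fragments each. With both chromosomes included, the far peaks numbered 372.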

How the results depend on the processing

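The number of members, 326, was 96 beyond 50 kb and 178 with a −log10 q of at least 10, both by construction, and ran from 248 to 388 under the other 5 alternatives. The share in stretches, 53.4%, was 60.7% when pairs were counted and 65.2% with the q filter, and 51.2% to 53.7% with gaps of 5, 20 and 50 kb. With the q filter the medians of fold enrichment, width, fragments and background were 8.04, 437.5 bp, 38.5 and 3.94. With each stretch counted once they were 6.63, 274 bp, 13 and 0.613. Without peaks at the lowest background they were 5.33, 360 bp, 29 and 3.66. Beyond 10 kb, beyond 5 kb of every kind of gene and without the stretch of 15, they were 5.82 to 6.07, 320.5 to 329 bp, 19 to 24 and 1.72 to 2.63. The cause was not tested. No paired analysis was possible because each group had 1 library. With 4 fragments at the weakest summits, weaker or rarer RNAs were not detectable at this depth.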
